A study of Mus musculus with 3 samples.

Results

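The genes described here are 10 mouse genes whose proteins edit or methylate RNA, remove methyl groups from it or read them: Adar, Adarb1, Nsun2, Nsun6, Alyref, Mettl3, Wtap, Rbm15, Fto and Alkbh5. They were set by name, out of 21900 protein-coding genes of the RefSeq table used, and a peak was counted to a gene when its midpoint lay in the gene's span on the mouse build mm10. Their spans held 10 of the 8196 peaks of the study. The peaks come from CLIP (cross-linking and immunoprecipitation), which recovers the RNA fragments that ultraviolet light has bound to a protein, here the endogenous Tet2. The 3 libraries form a single group, biological replicates 1, 2 and 3, of mast cells grown from the bone marrow of C57BL/6 mice with interleukin-3 (10 ng/ml) and stem cell factor (5 ng/ml). The cells carried FcεRI and c-Kit at a purity above 97.5%, and were irradiated at 400 and again at 200 mJ per square centimetre. No genotype, treatment or control antibody sets the libraries apart, and no input library was analysed here.

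Tet2 is best known for oxidising 5-methylcytosine in DNA, and it can also act on that base in RNA. Adenosine deaminases such as ADAR1, the product of Adar, turn adenosine into inosine in double-stranded RNA. Methyl groups are placed on RNA cytosines by NSUN enzymes and on adenosines by a complex around METTL3, are removed from adenosines by FTO and ALKBH5, and are recognised by reader proteins. In the data below these genes stand as sources of RNA that Tet2 may have been cross-linked to. The study set out to list the RNAs bound by Tet2, per its design text, and the protein activity of the 10 genes was not measured.

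Replicates 1, 2 and 3 listed 3019, 2800 and 2377 peaks. Within a library the deposited heights add up to 1 and rise in equal steps. Such a step is called a unit here, and the libraries held 19213, 18270 and 15431 of them. It is not stated that a unit equals 1 read, so sequencing depth is unknown. The lowest listed heights were 2, 2 and 3 units, the median was 4 units in each library, and peaks of at most 3 units made up 42.1%, 42.8% and 45.6% of the lists. A gene without a peak is therefore a gene with no called peak, which does not show that its RNA was absent from the library. Of 15 mast cell markers, 8 (53.3%) had at least 1 peak in some library, among them Kit and Gata2. The same share over all protein-coding genes was 14.1%. Fcer1a, Fcer1g, Ms4a2, Tpsab1, Cma1, Mcpt4 and Hpgds held none. Mitf and Srgn are counted on a single peak of 3 units each, in replicate 3 and in replicate 1. Cpa3 is counted among the 8, though its peaks lay in 3 gene spans and cannot be credited to it alone. Of 24 markers of macrophages, neutrophils, lymphocytes and erythroid cells, 1 (4.17%) held a peak, Adgre1 with 3 units in replicate 2.

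Wtap encodes a regulatory subunit of the adenosine methyltransferase complex that holds METTL3 in nuclear speckles. Its peak is shown first because it had the same start and end in replicates 2 and 3. The peak also lay at the position of the opening bases of the annotated transcript. Peaks were read as positions and heights without a strand, so the strand of the RNA is not known here. The bases below are read along the minus strand from the outermost annotated start of Wtap, chr17:12992514-12992543 (RefSeq, GRCm38.p6, the assembly of mm10), and capitals mark the peak.
Wtap: ctCGCGGGCCCGCCCTTCTCTCCGGccgct

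The capitals cover the position of bases 3 to 25 of the annotated transcript, counted from 1 at that start. Of these 23 bases, 12 were C, 7 were G, 4 were T and 0 were A, and the dinucleotide CG stood in 4 places. The same window held at least 1 CG at 53.3% of the 32851 annotated starts of the RefSeq promoter table, and 2.51% of them had no A in it. The share of starts with 4 or more CG is not given here. The median start had 6 C in that window, and 3.90% of starts had as many as Wtap or more. The 23 bases were found on either strand in 0 of the other promoters of the table. These are properties of the annotated sequence, and which base was cross-linked was not analysed here.

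Wtap (chromosome 17, 12966799 to 12992543, minus strand) had 0, 3 and 3 units in replicates 1, 2 and 3. The peak ran from 12992519 to 12992541 in both libraries that held it. Its midpoint was 13 nt from the 5′ end of the span, and a further annotated start, 4 nt inside the outermost one, fell within the peak. In replicate 1 the nearest peak stood 896 kb outside the span. Among peaks of replicate 2 overlapped by replicate 3, 126 of 948 (13.3%) had the same start and end, so equal boundaries alone do not set the Wtap peak apart. Midpoints within the first 50 bases of an annotated start of a protein-coding gene were uncommon, at 1.49% ± 0.0664 (SD, n = 3) of a library's peaks. Of the 10 genes, Wtap was the only one with a peak in that window.

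Alyref was the single gene of the 10 with a peak in every library. It encodes an adaptor of messenger RNA export that also binds 5-methylcytosine in RNA. Its span is short (chromosome 11, 120594504 to 120598399, minus strand, 3896 nt). Alyref had 3, 4 and 4 units in replicates 1, 2 and 3, with 1 peak in each library. The value of replicate 1 lay below the median of its list and the other 2 equalled theirs. In replicates 1, 2 and 3, 57.9%, 37.0% and 34.1% of the peaks were taller.

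The Alyref peaks of replicates 1 and 2 were at nearly the same place, and that of replicate 3 lay beside them. Replicate 1 had its peak at 120597664 to 120597722 and replicate 2 at 120597664 to 120597724, an overlap of 59 nt. The peak of replicate 3 ran from 120597800 to 120597917, nearer the 5′ end, and was separated from the peak of replicate 2 by 75 nt. The 3 midpoints were 706, 705 and 540.5 nt from the 5′ end of the span. By overlap of at least 1 nt, no locus of Alyref was common to the 3 libraries. When midpoints within 200 nt counted as shared, Alyref gave 1 locus in all 3. How reads were divided between Alyref and any near-identical sequence elsewhere was not analysed here, and its close relative Alyref2 had no peak.

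**Figure D1:**
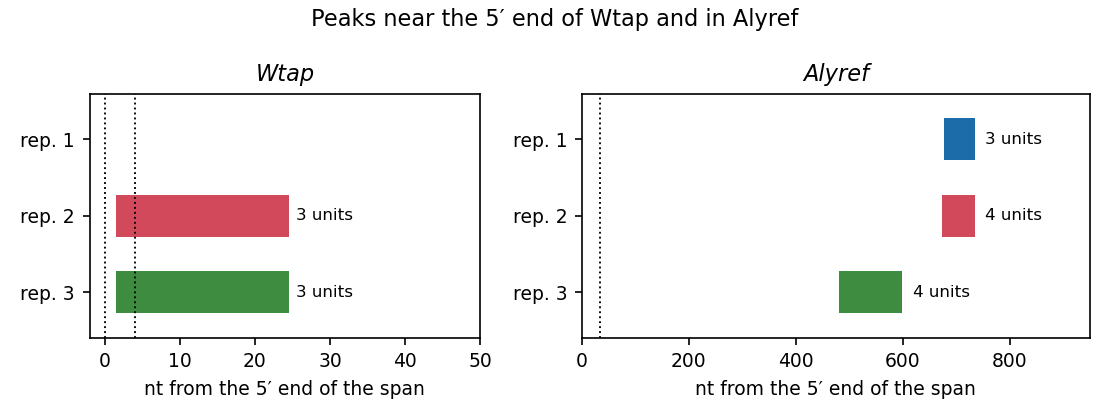
Peaks of Wtap (left) and Alyref (right) in each library, drawn as bars by their distance in nt from the 5′ end of the gene span, with the height in units beside each bar and dotted lines at annotated transcript starts. The Wtap bars of replicates 2 and 3 coincide at the start, and the Alyref bar of replicate 3 lies 75 nt from that of replicate 2.

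Neither gene for an adenosine deaminase held a peak. Adar (chromosome 3, 89714469 to 89753455) had 0 units in replicates 1, 2 and 3, and the nearest peaks stood 247, 285 and 280 kb outside its span. Those of replicates 1 and 2 lay in the span of Ubap2l, and that of replicate 3 lay in Pygo2. Adarb1, which encodes ADAR2, the editor of glutamate receptor transcripts (chromosome 10, 77290727 to 77418292), also had 0 units in each library. Its nearest peaks stood 241, 567 and 581 kb away. With the nearest peaks this far away, no alternative run on the lists could have given Adar a peak, including a span widened by 1000 nt on both sides.

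The cytosine methyltransferases were split. Nsun2, whose protein methylates transfer RNAs and messenger RNAs (chromosome 13, 69612016 to 69635780), had 0 units in all 3 libraries, and its nearest peaks stood 1749, 2128 and 6306 kb away. Nsun6, another cytosine methyltransferase of transfer and messenger RNA (chromosome 2, 14990444 to 15055144, minus strand), had 3, 0 and 0 units in replicates 1, 2 and 3. Its peak ran from 15020257 to 15020319, at 53.9% of the span from the 5′ end, and was the only peak of the 10 that lay nearer the 3′ end.

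Of the adenosine methyltransferase complex, Wtap and Rbm15 held peaks and Mettl3 did not. Rbm15 encodes an RNA-binding subunit that guides the complex to its targets, Xist among them (chromosome 3, 107305511 to 107334460, minus strand). Rbm15 had 0, 0 and 3 units in replicates 1, 2 and 3, in a peak at 107332171 to 107332246, which lay 1080.5 nt downstream of the annotated start. Mettl3, the catalytic subunit (chromosome 14, 52294841 to 52308741), had 0 units in each library. The nearest peaks to Mettl3 stood 133 kb away in replicates 1 and 2, in Supt16, and 1487 kb away in replicate 3.

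Both demethylase genes held peaks, each in 1 library. Alkbh5 (chromosome 11, 60537683 to 60558512, plus strand) had 0, 0 and 5 units in replicates 1, 2 and 3. This peak, at 60538423 to 60538462 and 759.5 nt from the annotated start, was the tallest of the 10, and 22.6% of the peaks of replicate 3 were taller. Fto (chromosome 8, 91313367 to 91668433, plus strand) had 2 peaks in replicate 2, at 91396295 to 91396347 and at 91440460 to 91440568, each of 3 units. It had none in replicates 1 and 3. Fto has the longest span of the 10 at 355067 nt, and its peaks lay 44193 nt apart, 23.4% and 35.8% of the way from the 5′ end.

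Across the 10 genes, 7 peaks stood at 3 units, 2 at 4 and 1 at 5. Widths ran from 23 nt at Wtap to 118 nt in Alyref, with a median of 60 nt, against a median of 53 nt in each full list. Together the genes took 0.0312%, 0.0712% and 0.0972% of the summed height of replicates 1, 2 and 3, or 0.0665% ± 0.0332 (SD, n = 3). The tallest peak of a gene had a median of 3 units among the 6 genes with a peak, and of 4 units among all 3086 protein-coding genes with one. Of those 3086 genes, 25.8% had a peak taller than the tallest of this set.

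**Figure D2:**
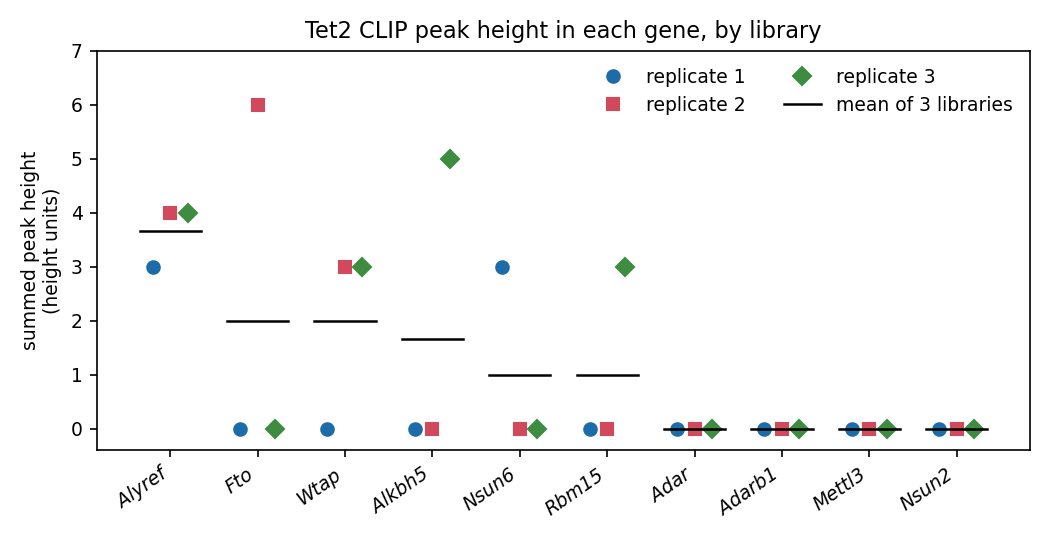
Summed peak height in units (vertical axis) in the span of each of the 10 genes, with a symbol for each library, a bar at the mean of 3 libraries, and 0 where no peak was listed. Alyref has values of 3 or 4 in every library, while Fto, Alkbh5, Nsun6 and Rbm15 have a value above 0 in a single library.

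Set per length, on the scale of summed height units per kb of gene span, the levels ran in the order Alyref, Alkbh5, Wtap, Rbm15, Nsun6 and Fto. Alyref had 0.770, 1.03 and 1.03 units per kb in replicates 1, 2 and 3, a mean of 0.941 ± 0.148 (SD, n = 3). Alkbh5 had 0, 0 and 0.240 units per kb (mean 0.0800 ± 0.139, SD, n = 3) and Wtap had 0, 0.117 and 0.117 (mean 0.0777 ± 0.0673, SD, n = 3). Alyref lay above every other gene of the set in each library, without overlap. From Alkbh5 downward, each neighbour in the order lay within the spread of the next, because each had at least 1 library at 0. Gene spans include introns, so this scale lowers long genes such as Fto and raises short ones such as Alyref.

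At the level of genes, 6 of the 10 held a peak in at least 1 library, and 14.1% of all protein-coding genes did. Replicate 1 had a peak in 2 of the 10 (8.55% of protein-coding genes), replicate 2 in 3 (8.04%) and replicate 3 in 4 (7.02%). A peak in all 3 libraries was found for 1 of the 10, Alyref, and for 3.16% of protein-coding genes. With heights of at least 4 units, 2 of the 10 kept a peak, Alyref and Alkbh5, against 8.74% of protein-coding genes, and with at least 5 units 1 did, Alkbh5, against 5.65%. The 10 genes were chosen with earlier results of these data known, so the first count is a description of the set and was not tested. Without an input library, Tet2 binding cannot be told apart from the amount of each RNA, and fewer cells that make an RNA cannot be told apart from less RNA per cell.

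Other genes of RNA modification held few peaks. Of 67 further genes in 6 lists, 4 had a peak in at least 1 library (5.97%) and none had a peak in all 3. None of 10 further subunits and enzymes of adenosine methylation, 8 further genes of cytosine methylation, 11 deaminases and their cofactors or 12 enzymes of other base methylations held a peak. Among 10 readers of adenosine methylation, Igf2bp2, which stabilises its target messenger RNAs, had 0, 3 and 0 units in replicates 1, 2 and 3. Together with the 10 genes above, 10 of 77 (13.0%) held a peak in at least 1 library, close to the 14.1% of all protein-coding genes. A share this near the background is no result about the wider group.

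Of 16 pseudouridine synthases and ribose methyltransferases, 3 (18.8%) held a peak in at least 1 library, and 14.1% of all protein-coding genes did. For a list of 16 genes these shares are close, so the count is no result about the list. Pus10, a pseudouridine synthase, had 5, 4 and 0 units in replicates 1, 2 and 3, and its peaks overlapped, with midpoints 29 nt apart. Fbl, which encodes fibrillarin, the methyltransferase that small nucleolar RNAs guide to ribosomal RNA, had 0, 0 and 3 units. Cmtr1, a methyltransferase of the messenger RNA cap, had 0, 3 and 0 units, in a peak that lay in 3 gene spans and cannot be credited to Cmtr1 alone.

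**Figure D3:**
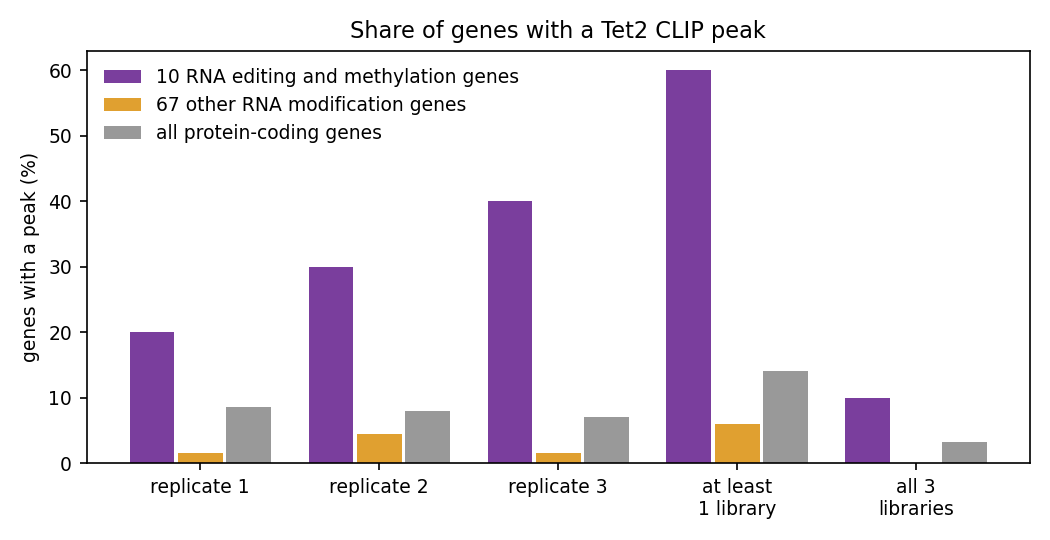
Share of genes (vertical axis, %) with a peak in each library, in at least 1 library and in all 3, for the 10 RNA editing and methylation genes, the 67 other RNA modification genes and all protein-coding genes. The share in at least 1 library was 60% for the 10 genes, 5.97% for the 67 others and 14.1% for all protein-coding genes.

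Peaks of the 10 genes lay toward the 5′ end of the spans. The strand used was that of the gene in the promoter table, as the peaks were read without a strand. By that strand, 9 of the 10 peaks were nearer the 5′ end than the 3′ end, in 5 of the 6 genes with a peak. Of 2506 protein-coding genes with a peak and a known strand, 54.6% had every peak nearer the 5′ end. That share depends on the number of peaks per gene, which was not matched, so the 2 values are not strictly alike. Among peaks of protein-coding spans with a known strand, 57.5% of 6035 were nearer the 5′ end. The opening 20% of the span held 7 peaks of the 10 genes, from Alkbh5, Wtap, Rbm15 and Alyref, and 40.8% of the peaks of all protein-coding spans. Peaks of Wtap and of Alyref overlapped between libraries, so the 7 are not all separate sites. Peaks of all spans were pooled over libraries in the same way. The last 20% held 0 of the 10, and 21.9% of all. By library, 83.3% ± 28.9 (SD, n = 3) of the peaks of the 10 genes and 57.6% ± 0.954 (SD, n = 3) of all such peaks were nearer the 5′ end. The difference was smaller than the SD between libraries, and in replicate 1 the 2 peaks were split. The comparison by 5′ and 3′ end was chosen after the positions were seen. Within 10% of either end of the span lay 4 of the 10 peaks (40%), and 46.7% of all. Without replicate 3 the share of the 10 genes was 16.7%, and without replicate 1 or 2 it was 50%. Within 20% of either end it was 70%, and 62.8% for all, so the order of these shares turned with the width of the ends. Exons, introns and UTRs were not analysed here.

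**Figure D4:**
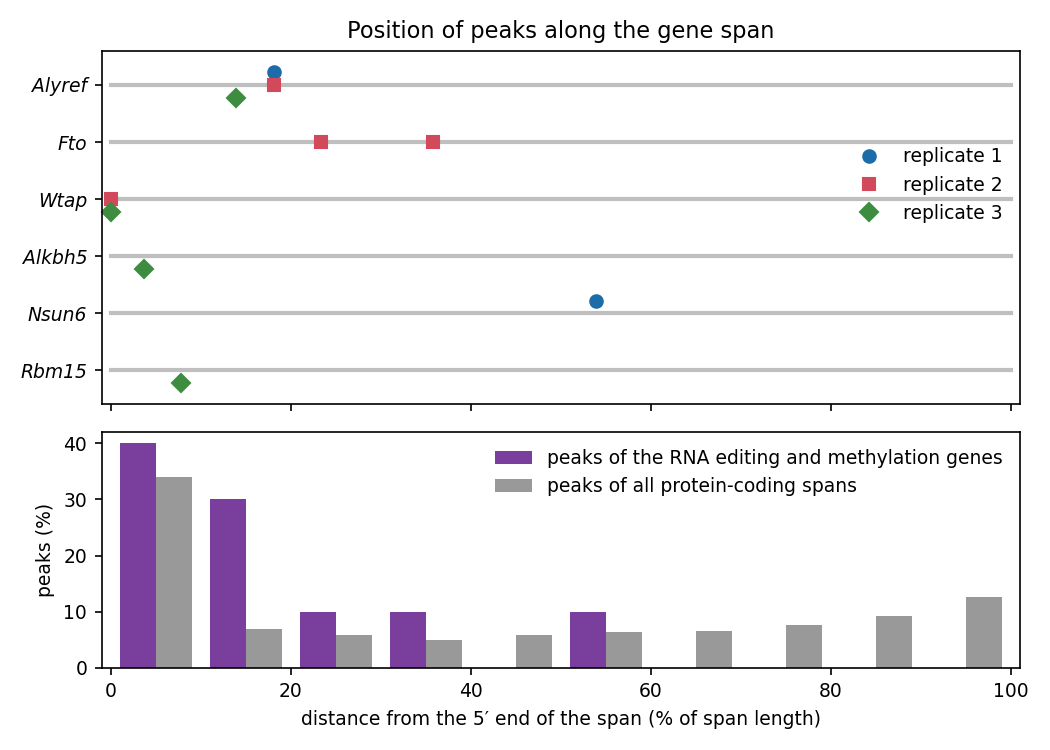
Position of each peak of the 6 genes with a peak, as distance from the 5′ end in % of span length (top, a symbol for each library), and the share of peaks in each 10% of the span (bottom, %) for these genes and for all protein-coding spans. The opening 10% held 40% of the peaks of these genes and 34.0% of all peaks, and no peak of these genes lay more than 60% of the way along.

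The 10 peaks formed 8 loci by overlap of at least 1 nt, of which 2 (Wtap and Alyref) were seen in 2 libraries, 6 in 1 and none in all 3. Over all 5969 loci of the study, 15.1% were seen in 2 libraries, 73.8% in 1 and 11.1% in all 3. A peak of another library overlapped 41.7% ± 14.4 (SD, n = 3) of the peaks of the 10 genes. The share was 46.6% ± 4.62 (SD, n = 3) over all peaks and 37.6% ± 4.92 (SD, n = 3) over peaks of at most 5 units, the range in which all peaks of the 10 genes lay. These differences were smaller than the SD of the 10 genes between libraries. Each of the 10 peaks lay in a single gene span, so none was shared with an overlapping gene.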

How the data were processed

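Tet2 CLIP was made in 3 libraries of 1 group. Per the submitters' processing notes, the tools included cutadapt 1.9 and STAR 2.4.0i, and the build was mm10. Per the labels' protocols a valley-seeking algorithm called the peaks, with settings not given in the sources used. The values are a signal: the authors deposited normalized peak heights, which were turned into units of the fixed step (tolerance 0.05 of a step). Starts were read as counted from 0 and are printed counted from 1. No strand was read with the peaks. Each peak was counted to a gene by position alone, and 5′ and 3′ ends follow the annotated strand of the gene. The labels name no separate animals, so SDs measure the spread between these libraries, part of which may be technical.

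Gene spans (GRCm38.p6) came from a RefSeq table, and strand, starts and bases from the RefSeq promoter table (250 bases before to 50 after a start), which matched 10 of 10 genes and 17492 of 21900 protein-coding genes with a single strand. The genes and lists were chosen with earlier results of these data known. With 1 group and no control library, no hypothesis test was run. Named genes are the 10 genes and, from 6 wider lists, those with a peak in all 3 libraries and up to 3 more per list by height. Mast cell markers and genes nearest to a span were named after their values were seen. Assignment, step and locus code was tested on simulated peaks. Alternatives were any overlap with the span, peaks in a single span, heights of at least 4 or 5 units, each replicate left out, other rules of sharing, wider ends and flanks of 1000 nt. Python 3.11.15 and matplotlib 3.10.9 were used.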

Additional observations from a re-analysis of the deposited data

How the results depend on the processing

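Of 76 values under 12 alternatives, 55 stayed within 1.5 times (counts) or 1 SD (means and shares), and 21 moved further. The SD between libraries was wide for some shares, so large changes also counted as staying. For peaks within 10% of a span end it was 38.2 percentage points, and 40% becoming 70% or 16.7% stayed within it. Some of the 55 could not move, such as the summed height of a gene with at most 1 peak per library. A change of direction was not scored. Of the 10 peaks, 7 stood at 3 units and are lost under a stricter height. With heights of at least 4 units, genes of the set with a peak in at least 1 library numbered 2 and in all 3 libraries 0, peaks per library averaged 1, the share of summed height was 0.0267%, other RNA modification genes with a peak numbered 1, and 0% of peaks were overlapped in another library. With at least 5 units these became 1, 0, 0.333, 0.0108%, 1 and 0%, and the share of peaks within 10% of a span end became 100%, on the single peak of Alkbh5. Leaving out 1 replicate gave 1 to 2 genes with a peak in every library left, 0 to 1 loci in every library left, 2 to 4 other RNA modification genes with a peak and 0% to 37.5% of peaks overlapped in another library. The share of peaks within 10% of a span end ran from 16.7% to 50% over these, and was 70% within 20%. The value of 2 genes came without replicate 1, when Wtap joined Alyref, and the 0% came without replicate 2. Midpoints within 200 nt gave 1 locus in all 3 libraries, Alyref. Flanks of 1000 nt raised the other RNA modification genes with a peak to 7 of 67. The share of all protein-coding genes with such flanks is not given here, so this count is no result about these genes. No paired analysis was possible because the libraries form 1 group. Depth is unknown, and peaks near the lowest listed height limit each count.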

Other observations

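A peak of 3 units lay within 1000 nt outside the span of 3 other RNA modification genes: Trmt112, which encodes a partner of several methyltransferases (replicate 1, in the span of Esrra), Apobec3, a cytidine deaminase gene (replicate 1, in the span of Cbx7), and Rbm15b, a relative of Rbm15 (replicate 2, in the span of Dcaf1). With these flanks the number of the 10 genes with a peak stayed at 6. In libraries where a gene of the 10 held no peak, none lay within 1000 nt outside its span. These genes were named after their values were seen, and no share over all protein-coding genes with such flanks is given beside them.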
